A study of Caenorhabditis elegans with 30 samples.

Results

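The triple mutant daf-2;his-72;his-71 of the nematode Caenorhabditis elegans, with the daf-2 allele e1370, the his-72 allele tm2066 and the his-71 allele ok2289, was set against wild type (WT), gene by gene. A gene was compared where the higher of the 2 values was at least 5 FPKM and both were above 0, which held for 11579 of the 20483 genes listed. FPKM counts sequenced fragments per length of transcript and per size of the library. A further 7294 genes were above 0 in both but under the minimum, and 1610 were listed at 0 in either. Just under the minimum, and left out, lay C36A4.11 with 3.45 FPKM in WT and 4.996 in the triple mutant; just above it, and kept, lay nhr-238 with 5.0006 and 4.21 FPKM.

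The study collected whole worms of 6 genotypes at the late L4 stage, the last larval stage before adulthood, with 5 biological replicates each. Besides WT and the triple mutant these were the double mutant his-72(tm2066);his-71(ok2289), the single mutant daf-2(e1370), nuo-6(qm200), and nuo-6(qm200) combined with both his alleles. Every population was synchronised by bleaching and fed OP50 bacteria at 20 °C, and no treatment was given. The triple mutant differs from WT at 3 loci at once, so the comparison alone does not separate the daf-2 allele from the loss of his-72 and his-71; the values of the double mutant and of daf-2 are therefore given beside it.

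The gene daf-2 encodes the worm's insulin/IGF receptor. When its signalling is reduced, the FOXO transcription factor DAF-16 enters the nucleus, stress defence genes are induced, lifespan is extended, and with stronger reduction larvae arrest as dauers, a long-lived larval form with its own cuticle. Histone H3.3 is a histone H3 variant whose deposition in chromatin does not need DNA replication, and most worm tissues make it from his-71 and his-72.

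For each genotype the deposited table holds 1 value per gene, in which the 5 replicates were pooled by the authors. There is no spread between replicates, and no test, error or p-value can be given. A gene is called higher or lower here where its ratio was at least 2, which describes these pools and not the genotypes' replicate error. Sequencing depth is unknown. Steps between low values did not give it, since at best 24.9% of low WT values and 25.16% of low triple mutant values lay within 0.1 of a whole multiple of a unit. Summed FPKM was 1304234 in WT and 935102 in the triple mutant. These are whole worms, in which fewer cells of a type and less RNA per cell cannot be told apart.

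The deleted genes matched their labels. The gene his-72 (III:12367475-12369050) was listed at 418 FPKM in WT, 0.408 in the double mutant, 330 in daf-2 worms and 0.293 in the triple mutant. For his-71 (X:7981381-7982070) the values were 303, 0.276, 344 and 0.372 FPKM in the same order. Both were near 0 where the labels give the his alleles and high in the other pools. They were 1428-fold and 815-fold lower in the triple mutant than in WT. The e1370 allele is a point mutation, so the level of daf-2 does not check it. The gene daf-2 (III:2995763-3028800) had 13.03 FPKM in WT, 12.7 in the double mutant, 32.2 in daf-2 worms and 21.2 in the triple mutant, a ratio of 1.63 to WT. Positions are those of the authors' tables, counted from 1; their genome build is not given in the sources used here.

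Among compared genes, 1682 (14.5%) were higher in the triple mutant and 1265 (10.9%) were lower, while 8632 were neither. The median log2 ratio was 0.01, and the middle range from the 5th to the 95th percentile ran from -1.37 to 3.22. The tails were thus unequal in size. At least 10-fold differences were seen for 564 genes higher and 26 lower, and at least 100-fold differences for 237 higher and 4 lower. Of the higher genes, 150 were under 0.1 FPKM in WT, where a ratio is imprecise. Genes called higher held 13.6% of the summed FPKM of the triple mutant and 1.70% of that of WT. Genes called lower held 22.6% and 38.3%. If the pools are instead scaled to equal summed FPKM, every log2 ratio shifts by 0.48 and the split becomes 3094 higher and 482 lower, so that 86.5% rather than 57.1% of called genes are higher. List counts with equal summed FPKM, given below, are to be read beside these 3094 and 482 of 11579 compared genes.

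**Figure D1:**
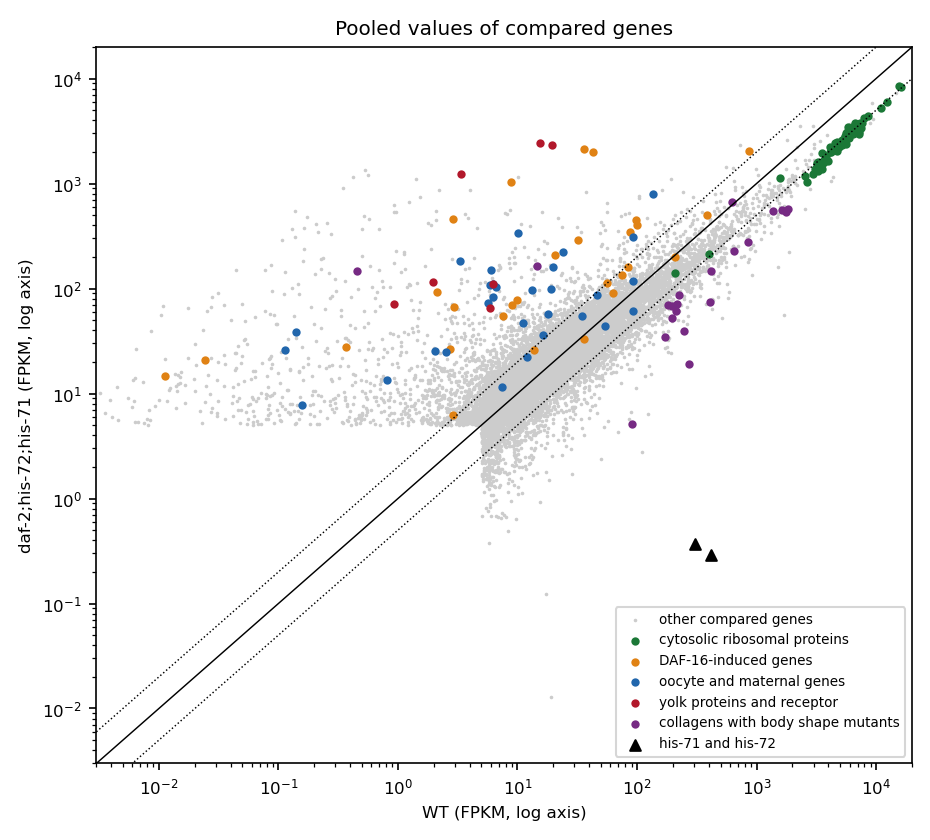
FPKM in WT (x) against FPKM in daf-2;his-72;his-71 (y) for the 11579 compared genes on log axes, with 5 gene lists and the deleted genes in colour; the solid line marks equal values and the dotted lines a ratio of 2. The 7 yolk genes lie above the upper dotted line, and the 77 compared ribosomal protein genes lie below the solid line.

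Shares of called genes varied with expression level. Of the 308 genes with a mean of at least 500 FPKM over both pools, 40.9% were lower and 6.17% higher, with a median log2 ratio of -0.92. Between 5 and 20 FPKM, 7.90% of 4657 genes were lower and 15.7% higher. The 654 genes with a mean under 5 FPKM could enter only through the higher pool, so their shares, 41.6% higher and 22.6% lower, follow in part from the minimum. By chromosome, the share of higher genes was 20.4% on V and between 10.6% and 15.8% on the other nuclear chromosomes, and 0 of the 12 compared mitochondrial genes were higher. The X chromosome had more lower genes (13.1%) than higher ones (11.3%), whereas each autosome had more higher than lower. Shares by level and by chromosome rest on the scaling as deposited. They were not recounted with equal summed FPKM, which raises every log2 ratio by 0.48.

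**Figure D2:**
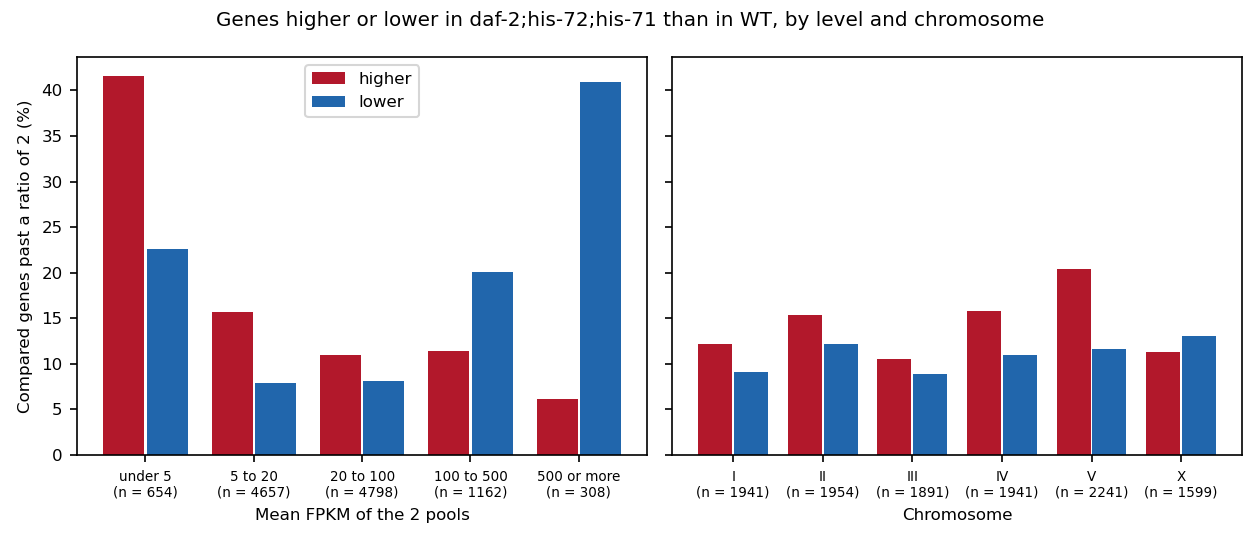
Percentage of compared genes at least 2-fold higher (red) or lower (blue) in daf-2;his-72;his-71 than in WT, by mean FPKM of both pools (left) and by chromosome (right), with the number of compared genes under each pair of bars. Lower genes reach 40.9% among genes of 500 FPKM or more, and higher genes reach 20.4% on chromosome V.

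DAF-16-induced genes, which FOXO switches on when insulin signalling is low, were mostly higher. Of the 28 on the list, all compared, 21 were higher and 0 lower, with a median log2 ratio 2.88 above that of all genes. The superoxide dismutase gene sod-3 was listed at 2.95 FPKM in WT, 2.38 in the double mutant, 166 in daf-2 worms and 66.5 in the triple mutant, where it was 22.5-fold above WT. The metallothionein gene mtl-1 had 2.87, 1.21, 689 and 457 FPKM, and the triple mutant was 159-fold above WT. In both genes, among these 4 pools, the 2 with the daf-2 allele were high and the other 2 low. In nuo-6 they were also above WT, at 20.4 FPKM for sod-3 and 34.1 for mtl-1. With the his alleles added to nuo-6 the values were 13.9 and 10.2 FPKM. The gene far-3, for a binding protein of fatty acids, was likewise high in both pools with the daf-2 allele, at 8.86, 9.16, 3872 and 1028 FPKM. It had 133 FPKM in nuo-6 and 115 in nuo-6 with the his alleles. The small heat shock gene sip-1 was instead highest in the triple mutant, at 43.3, 39.8, 333 and 2013 FPKM. The gene scl-1 stood apart in that daf-2 itself was low: 0.0244 FPKM in WT, 0 in the double mutant, 0.0975 in daf-2 worms and 21.02 in the triple mutant. The values of sod-3 and far-3 are uncertain because their listed loci overlap another gene's, as do those of akt-1, nos-2, cdc-25.3, lin-29, epg-2, acdh-2 and spp-20.

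DAF-16-repressed genes, the counterpart list, were compared for 8 of 12 members, with 4 lower and 1 higher. Among them dod-17 had 23.9 FPKM in WT, 32.9 in the double mutant, 4.47 in daf-2 worms and 4.19 in the triple mutant. With equal summed FPKM 1 member was lower and 2 higher. In the insulin pathway itself 3 of 21 compared genes were higher (14.3%), close to the 14.5% of all compared genes, and 1 was lower. With equal summed FPKM 11 were higher and 0 lower. Among the 3 higher genes, the kinase genes pdk-1 and akt-1, which act below the receptor, were 3.34-fold and 2.46-fold above WT. Both were also above WT in daf-2. The remaining higher gene is not reported here. The transcription factor gene daf-16 was at 71.3 FPKM in WT and 89.01 in the triple mutant and did not pass. Insulin-like peptide genes, the receptor's candidate ligands, were higher for 17 of 28 compared, with 1 lower and a median 1.34 above that of all genes. As a list their median was 6.41 FPKM in WT, 19.8 in daf-2 worms and 13.1 in the triple mutant. The gene ins-16 was listed at 0.0803 FPKM in WT, 0.183 in the double mutant, 54.1 in daf-2 worms and 9.70 in the triple mutant. For ins-19 the values were 0.0166, 0.169, 0.126 and 8.11 FPKM, so that only the triple mutant of these 4 pools was above 1 FPKM.

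Cytochrome P450 genes, whose products oxidise lipids and foreign compounds, were higher for 20 of 39 compared and lower for 1. The P450 gene cyp-35B1, also on the DAF-16-induced list, had 0.368 FPKM in WT, 0.390 in the double mutant, 33.8 in daf-2 worms and 27.9 in the triple mutant. Glutathione S-transferase genes were higher for 10 of 28 and lower for 3, gst-29 by 11.2-fold and gst-3 by 10.8-fold. UDP-glycosyltransferase genes were higher for 10 and lower for 10 of 45, and with equal summed FPKM higher for 14 and lower for 5. Among superoxide dismutases, catalases and peroxiredoxins 3 of 15 were higher, namely sod-3, ctl-1 and ctl-3, while sod-1 had 338 FPKM in WT and 345 in the triple mutant.

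Heat shock genes were listed in 2 groups. Of 5 compared inducible genes (9 listed), 4 were lower. The gene hsp-16.41, for a small heat shock protein, was at 254 FPKM in WT, 10.6 in the double mutant, 1488 in daf-2 worms and 40.3 in the triple mutant. Its neighbour hsp-16.2 had 264, 13.1, 1232 and 45.9 FPKM. Among these 4 pools both with the his alleles were below WT and daf-2 was above it, whereas nuo-6 with the his alleles had 784 FPKM of hsp-16.41. The HSP70-family genes F44E5.4 and F44E5.5 were 10.4-fold and 9.31-fold lower than in WT. These genes have near-identical copies between which reads may be split. Outside the hsp-16 family, 4 of 10 small heat shock genes were higher and 2 lower, with 5 ratios above 1 and 5 below it. The gene hsp-12.6, 1 of the higher ones, was at 9.97 FPKM in WT, 2.55 in the double mutant, 34.9 in daf-2 worms and 77.6 in the triple mutant. Genes of the unfolded protein responses were not higher: 0 of 20 in the endoplasmic reticulum list, with 2 lower (hsp-4 and pdi-2), and 0 of 15 in the mitochondrial list, with 4 lower, among them the chaperonin gene hsp-60 at 259 FPKM in WT and 100 in the triple mutant. With equal summed FPKM none of these 6 lower calls was left, and 1 gene of the mitochondrial list was higher.

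**Figure D3:**
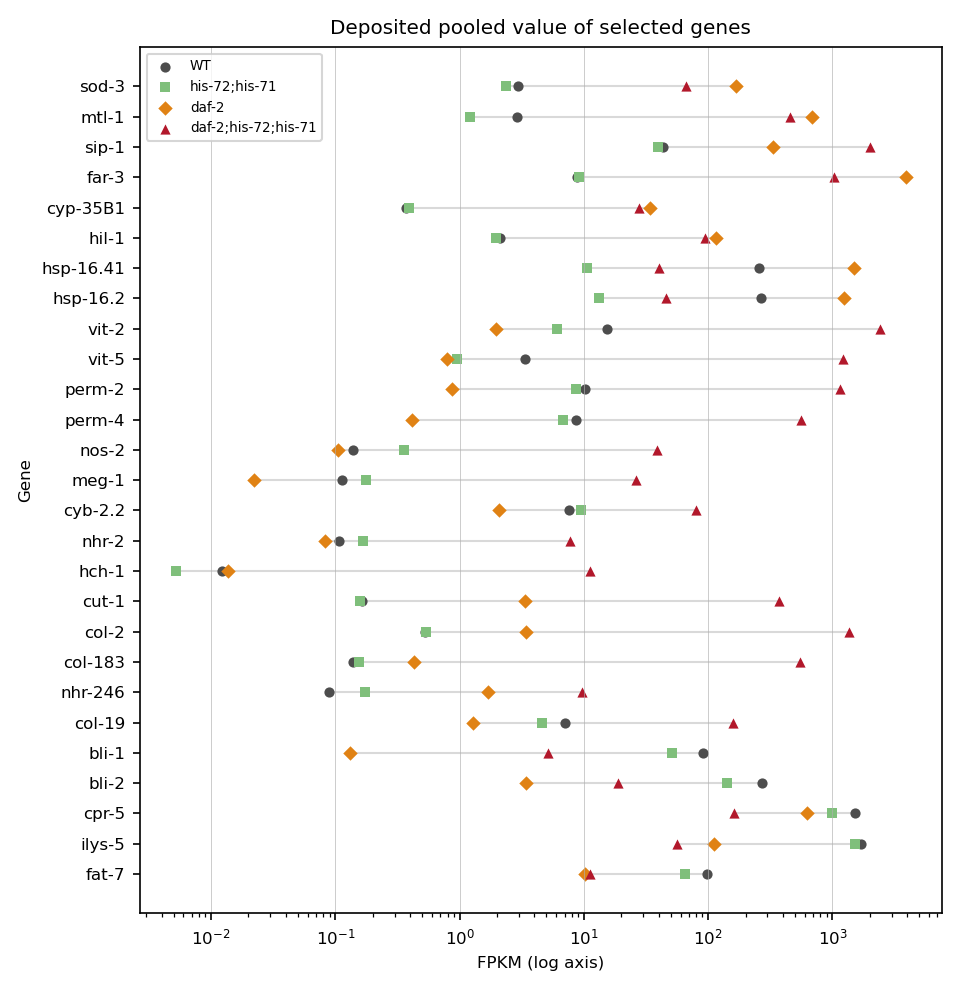
Deposited FPKM (log axis) of 27 genes in WT (circle), his-72;his-71 (square), daf-2 (diamond) and daf-2;his-72;his-71 (triangle), 1 value per genotype. For sod-3 and mtl-1 both pools with the daf-2 allele are high, for vit-2 and col-183 the triple mutant alone is high among these pools, and for bli-1 and ilys-5 both pools with the daf-2 allele are low. The nuo-6 pools are not drawn. In them ilys-5 was low too, and sod-3 and mtl-1 were above WT.

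Yolk genes showed large differences. The 6 vitellogenin genes, transcribed in the adult intestine to provision oocytes, and the oocyte yolk receptor gene rme-2 were all higher, with a list median 6.27 above that of all genes on the log2 scale. The gene vit-2 (X:5101032-5106173) was listed at 15.4 FPKM in WT, 6.02 in the double mutant, 1.95 in daf-2 worms and 2435 in the triple mutant. For vit-6 the values were 19.5, 9.05, 1.91 and 2348 FPKM, and for vit-5 they were 3.35, 0.951, 0.791 and 1225 FPKM. The triple mutant was thus high and daf-2 alone was below WT. Yolk genes were also above WT in nuo-6, where vit-2 had 605 FPKM, and not in nuo-6 with the his alleles, where it had 2.11. Together the list took 0.681% of the triple mutant pool and 0.00408% of the WT pool. The vit-3, vit-4 and vit-5 genes are near-identical, so the share of each is uncertain.

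Genes of the oocyte, eggshell and egg activation were high in the same pool. Of 26 compared eggshell genes, 16 were higher and 2 lower, with a median 2.97 above that of all genes. The gene perm-2, needed for the eggshell's permeability barrier, had 10.2 FPKM in WT, 8.68 in the double mutant, 0.862 in daf-2 worms and 1157 in the triple mutant. Its partner perm-4 had 8.71, 6.84, 0.413 and 557 FPKM. Of 30 compared oocyte and maternal genes, 23 were higher and 0 lower, with a median 3.11 above that of all genes. The Pumilio-family gene puf-5, a translational repressor in oocytes, had 3.32, 4.34, 0.761 and 184 FPKM. The Nanos-related gene nos-2 and the P granule gene meg-1, whose products act in the embryo's germline precursors, were at 0.139 and 0.114 FPKM in WT and at 38.8 and 26.1 FPKM in the triple mutant. In daf-2 these 5 genes were all below WT. In nuo-6 all 5 were above WT and below the triple mutant. Their nuo-6 values were 178 FPKM for perm-2, 113 for perm-4, 28.1 for puf-5, 3.61 for nos-2 and 1.42 for meg-1. The list medians were also above WT in nuo-6, at 19.8 FPKM for eggshell genes and 21.8 for oocyte and maternal genes. In nuo-6 with the his alleles these medians were 5.53 and 6.02 FPKM, below those of WT.

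In the cell cycle and DNA replication list 15 of 47 were higher and 0 lower (33 higher with equal summed FPKM), with a median 0.75 above that of all genes. The cyclin B genes cyb-2.2 and cyb-3 had 7.59 and 50.2 FPKM in WT and 79.2 and 256 in the triple mutant. The phosphatase gene cdc-25.3 had 0.0165 FPKM in WT, 0.0223 in the double mutant, 0.00762 in daf-2 worms and 11.9 in the triple mutant. Of 42 meiotic chromosome genes 6 were higher (14.3%) and 0 lower. With equal summed FPKM 20 of them were higher. The gene lab-1, which protects cohesion in meiosis, was 5.02-fold higher. Germline RNA regulators were higher for 8 and lower for 3 of 30, and with equal summed FPKM for 14 and 2. The helicase gene cgh-1 was 3.89-fold higher, and fog-3, which specifies sperm fate, was 7.95-fold lower, with 25.35 FPKM in WT, 23.4 in the double mutant, 4.26 in daf-2 worms and 3.19 in the triple mutant.

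Sperm genes were mostly lower where they were called. Of 51 spermatogenesis and fertilization genes 27 were compared, and 12 of these were lower and 0 higher. The Argonaute genes alg-3 and alg-4, which act with small RNAs in sperm development, had 6.56 and 9.55 FPKM in WT, 10.5 and 14.2 in the double mutant, 0.0981 and 0.0211 in daf-2, and 1.88 and 2.21 in the triple mutant. The triple mutant therefore lay between daf-2 and WT for both genes. Major sperm protein genes were lower for 8 of 32 compared and higher for 1. With equal summed FPKM 8 spermatogenesis genes and 2 major sperm protein genes were lower. Major sperm protein genes have near-identical copies.

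Transcripts of stages other than late L4 were also measured, in 3 lists put together after the values had been seen. The first holds 55 early embryonic genes. Their median was 0.0391 FPKM in WT, 0.0368 in the double mutant, 0.0395 in daf-2 worms and 1.499 in the triple mutant, and the list took 0.00666% of the WT pool, 0.0100% of the double mutant pool, 0.0195% of the daf-2 pool and 0.0417% of the triple mutant pool. Only 12 reached the minimum for comparison. Of these 10 were higher and 0 lower, beside 14.5% and 10.9% of all compared genes, in a list chosen with the values known. With such low WT values, members could pass the minimum mainly through the triple mutant pool. Their direction therefore follows in part from the minimum. The hatching protease gene hch-1 had 0.0123 FPKM in WT, 0.00525 in the double mutant, 0.0136 in daf-2 worms and 11.2 in the triple mutant. The early zygotic nuclear receptor gene nhr-2 had 0.107, 0.167, 0.0829 and 7.69 FPKM. Neither gene was above 1 FPKM in the other pools.

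A second of these lists holds 5 genes expressed in the lumen of the adult uterus, all higher in the triple mutant. Among them Y62H9A.6 had 1.23 FPKM in WT, 0.660 in the double mutant, 0.563 in daf-2 worms and 669 in the triple mutant, with 143 in nuo-6. WT medians of this list and the last were 1.91 and 0.724 FPKM. Both lie under the minimum, so the directions in these lists also follow in part from it. The last list holds 8 genes described in dauer larvae, of which 6 were higher, F53F1.4 was lower (1533 FPKM in WT and 396 in the triple mutant) and ets-10 was not compared (2.2002 and 2.48 FPKM). The dauer cuticle gene cut-1 (II:11269038-11271599) had 0.165 FPKM in WT, 0.159 in the double mutant, 3.35 in daf-2 worms and 374 in the triple mutant. The collagen gene col-2 had 0.530, 0.532, 3.39 and 1351 FPKM, and col-183 had 0.139, 0.155, 0.427 and 552 FPKM. All 3 genes were above WT in daf-2 worms, and with the his alleles added they were higher still.

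All pools carry the label late L4. Within these tables, the mix of stages in each pool cannot be told apart from regulation by genotype, and its part in the yolk, oocyte, embryonic, dauer and cuticle values was not tested.

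**Figure D4:**
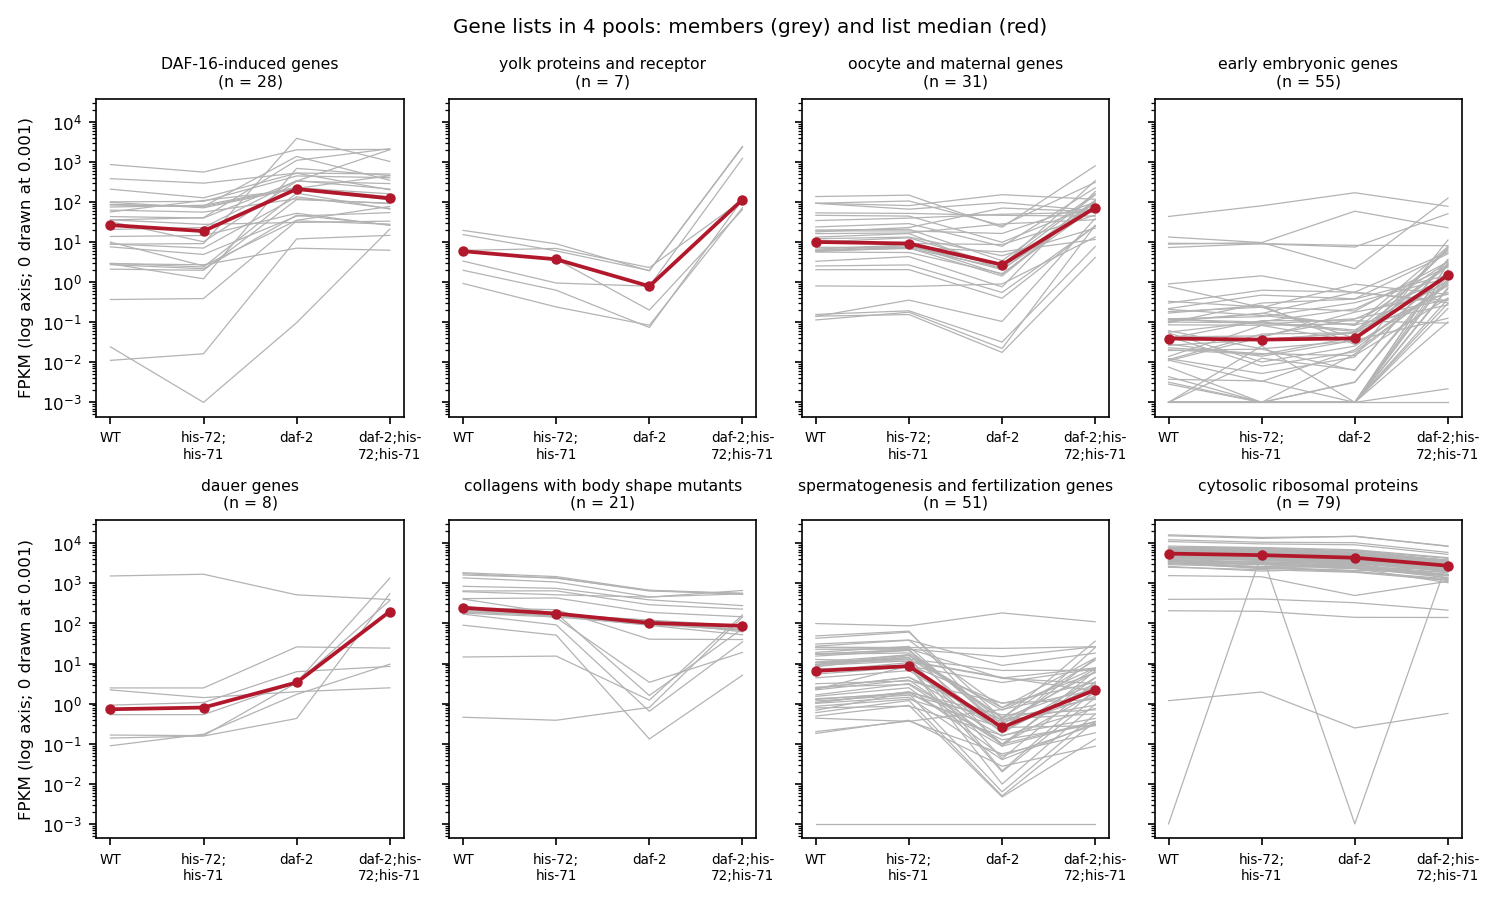
FPKM (log axis, values of 0 drawn at 0.001) of every member of 8 gene lists in WT, his-72;his-71, daf-2 and daf-2;his-72;his-71, with each gene as a grey line and the list median in red. The early embryonic median is 0.0395 FPKM in daf-2 worms and 1.499 in the triple mutant, the spermatogenesis median is lowest in daf-2, and the grey lines dropping to 0.001 among ribosomal genes are values listed at 0.

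Cuticle collagens, the building material of the worm's exoskeleton that is made anew at each moult, went both ways. Of 134 compared (158 listed), 55 were higher and 45 lower, and the median lay 0.10 below that of all genes. The gene col-51 had 0.130 FPKM in WT, 0.124 in the double mutant, 0.392 in daf-2 worms and 368 in the triple mutant, and col-102 had 0.108, 0.113, 1.47 and 293 FPKM. Collagens with body shape mutants were lower for 18 of 21, with a median 1.61 below that of all genes, and 15 stayed lower with equal summed FPKM. The blister collagen gene bli-1, whose product forms struts of the adult cuticle, had 90.6 FPKM in WT, 51.1 in the double mutant, 0.131 in daf-2 worms and 5.11 in the triple mutant. Its partner bli-2 had 272, 141, 3.40 and 18.95 FPKM. Both were lowest in daf-2, and both overlap another listed locus. The 2 higher members of that list were dpy-14 (0.457 FPKM in WT and 145 in the triple mutant) and dpy-17 (14.6 and 163).

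Adult cuticle markers divided in the same way. Of 8, 5 were lower, among them bli-1, bli-2, col-38 and col-63, and 3 were higher, namely col-19, col-7 and col-62. The adult collagen gene col-19 had 7.10 FPKM in WT, 4.60 in the double mutant, 1.29 in daf-2 worms and 158 in the triple mutant, beside 1194 in nuo-6. In contrast col-38 had 581, 256, 3.22 and 81.5 FPKM in the first 4 pools. Moulting cycle genes were lower for 13 of 27 and higher for 4, with 3 lower when summed FPKM was made equal. The gene mlt-10, expressed in phase with the moult, had 169 FPKM in WT, 136 in the double mutant, 32.7 in daf-2 worms and 33.9 in the triple mutant. Of 16 timing genes of the heterochronic pathway and of moulting, 3 were higher and 3 lower (18.75% each, beside 14.5% and 10.9% of all compared genes). With equal summed FPKM 3 were higher and 1 lower. The higher ones were hbl-1, lin-28 and lin-41, which hold back later fates. The lower ones were pqn-47, lin-42 and lin-29. The last, a transcription factor gene of the switch to adult hypodermis, was at 33.9 FPKM in WT and 7.95 in the triple mutant. The values of lin-41 were 17.9 FPKM in WT, 23.1 in the double mutant, 70.6 in daf-2 worms and 57.2 in the triple mutant.

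Ribosomal and mitochondrial genes were lower together, but by little. All 77 compared cytosolic ribosomal protein genes had a ratio below 1, and 46 passed a ratio of 2, with a median 1.04 below that of all genes. The list took 33.4% of the WT pool and 23.4% of the triple mutant pool. As an example rpl-11.2 had 3538 FPKM in WT, 3471 in the double mutant, 3070 in daf-2 worms and 1370 in the triple mutant. The subunit gene rpl-32 was listed at 0 in WT and 3836 in the triple mutant and was not compared. For mitochondrial ribosomal proteins 27 of 70 were lower and 0 higher, and for respiratory complexes III to V 14 of 32 were lower and 0 higher. The ATP synthase gene H28O16.1 had 2170 FPKM in WT, 1637 in the double mutant, 1697 in daf-2 worms and 960 in the triple mutant. In complex I 1 of 29 was lower. These calls rest on the scaling, since with equal summed FPKM 0 cytosolic ribosomal, 2 mitochondrial ribosomal and 0 genes of complexes III to V were lower. Their medians, taken less that of all genes, do not depend on this scaling. Proteasome subunits were all within a ratio of 2, with 33 of 33 below 1.

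Tissue markers were mostly lower or not called. Muscle markers were lower for 10 of 35 and higher for 0, with 1 lower at equal summed FPKM; the myosin heavy chain gene unc-54 had 607 FPKM in WT, 534 in the double mutant, 410 in daf-2 worms and 239 in the triple mutant. Of 27 intestine markers 12 were lower and 1, mtl-1, higher, while at equal summed FPKM 7 were lower and 5 higher. The cathepsin B gene cpr-5 had 1512 FPKM in WT, 998 in the double mutant, 629 in daf-2 worms and 160 in the triple mutant. The intestinal actin gene act-5 had 1093, 948, 612 and 300 FPKM. Hypodermis markers were lower for 6 of 12 and higher for 0, and at equal summed FPKM lower for 5 and higher for 3. Of 18 compared neuron markers 0 were higher and 0 lower, with a median 0.12 above that of all genes.

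**Figure D5:**
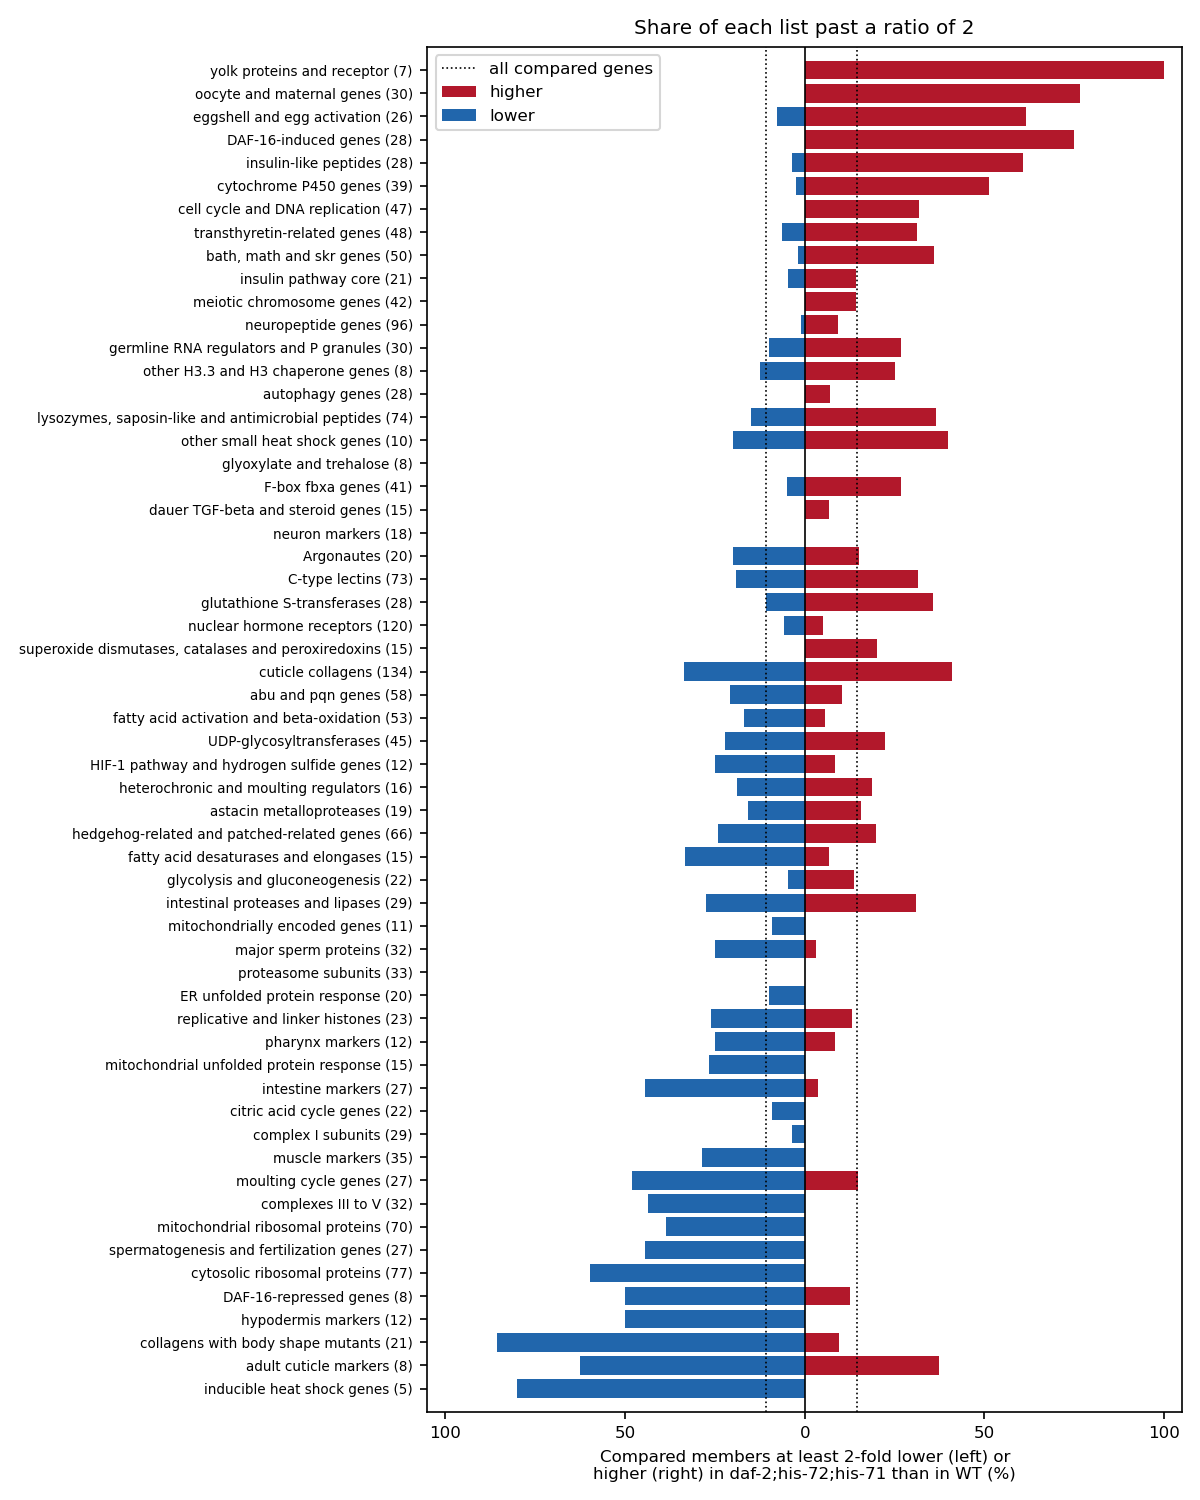
Percentage of compared members at least 2-fold higher (red, right) or lower (blue, left) in daf-2;his-72;his-71 than in WT for each list with at least 5 compared members, other than the 3 lists put together after the values had been seen, ordered by median log2 ratio, with the number of compared members in brackets. Dotted lines mark 14.5% higher and 10.9% lower over all compared genes; yolk genes reach 100% higher at the top.

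Among genes of central metabolism, the lists of fatty acid synthesis and breakdown held more lower than higher genes. In glycolysis and gluconeogenesis 3 of 22 were higher (13.6%) and 1 lower (4.55%). Neither share exceeded that of all compared genes, 14.5% higher and 10.9% lower. The glyceraldehyde phosphate dehydrogenase gene gpd-1 had 15.1 FPKM in WT, 15.96 in the double mutant, 8.002 in daf-2 worms and 97.9 in the triple mutant. Of 22 citric acid cycle genes 2 were lower (9.09%, also below the share of all compared genes), and of 8 glyoxylate and trehalose genes none was called. Among fatty acid desaturases and elongases 5 of 15 were lower (33.3%) and 1 higher, with 2 lower at equal summed FPKM. The delta-9 desaturase gene fat-7 had 97.8 FPKM in WT, 64.8 in the double mutant, 10.2 in daf-2 worms and 11.2 in the triple mutant. It was also low in nuo-6, at 7.44 FPKM, and in nuo-6 with the his alleles, at 9.54. Genes of fatty acid activation and beta-oxidation were lower for 9 of 53 (16.98%) and higher for 3. With equal summed FPKM 6 were lower and 10 higher, beside 482 lower and 3094 higher of all 11579 compared genes. The acyl-CoA dehydrogenase gene acdh-2 was 11.1-fold lower. Autophagy genes were higher for 2 of 28, atg-2 and epg-2, and lower for 0, and with equal summed FPKM 12 were higher.

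Immune and cullin adaptor families held 5 of the 10 largest ratios among higher genes, those of skr-7, clec-18, spp-20, clec-59 and spp-21. All 5 were under 0.1 FPKM in WT, where a ratio is imprecise, so their rank is uncertain. The 3 lists that hold them had 73, 74 and 50 of the 11579 compared genes. C-type lectin genes were higher for 23 and lower for 14 of 73 compared, out of 250 listed. The lectin gene clec-18 had 0.00638 FPKM in WT, 0.00858 in the double mutant, 35.2 in daf-2 worms and 26.7 in the triple mutant, a ratio of 4188 against a WT value too low to be precise. Lysozyme, saposin-like and antimicrobial peptide genes were higher for 27 and lower for 11 of 74. The saposin-like gene spp-21 had 0.0280, 0.441, 35.5 and 83.6 FPKM. The invertebrate-type lysozyme gene ilys-5 went the other way, at 1702 FPKM in WT, 1515 in the double mutant, 112.3 in daf-2 worms and 56.2 in the triple mutant, which was 30.3-fold lower than in WT. It was also low in nuo-6, at 78.5 FPKM, and in nuo-6 with the his alleles, at 54.7. Among the cullin adaptor families bath, math and skr 18 of 50 were higher and 1 lower (27 and 1 with equal summed FPKM), with skr-7 at 0.00864, 0.0693, 0.0710 and 39.6 FPKM. Transthyretin-related genes were higher for 15 of 48 and lower for 3 (26 and 2 with equal summed FPKM). Nuclear hormone receptor genes were higher for 6 and lower for 7 of 120 compared (16 and 3 with equal summed FPKM), both below the shares over all genes.

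The largest ratios of all belonged to F35E8.7 and F35E8.6 among higher genes and to F56A4.3, his-72 and his-71 among lower ones. The neighbouring genes F35E8.7 and F35E8.6 lie on chromosome V. The first had 0.0108 FPKM in WT, 0.0378 in the double mutant, 61.5 in daf-2 worms and 67.9 in the triple mutant, and the second 0.0103, 0.00969, 24.5 and 56.0 FPKM. Both were high with the daf-2 allele, with or without the his alleles. The gene F56A4.3 had 19.02 FPKM in WT, 0.0668 in the double mutant, 433 in daf-2 worms and 0.0129 in the triple mutant, and was low in every pool with the his alleles, nuo-6 with the his alleles included at 0.0910. In nuo-6 without them it was also low, at 0.251 FPKM.

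Other histone genes were measured beside the deleted ones. The remaining H3.3 gene his-74 had 160 FPKM in WT, 149.7 in the double mutant, 49.9 in daf-2 worms and 202 in the triple mutant, a ratio of 1.26 to WT. The H3.3-related gene his-70 had 17.7, 25.33, 0.312 and 3.36 FPKM and was 5.27-fold lower than in WT. Of 8 compared genes in this group, which includes chaperones of H3, cpar-1 and asfl-1 were higher. The cpar-1 gene, a paralog of the centromeric H3 gene, had 4.37 FPKM in WT, 3.71 in the double mutant, 1.52 in daf-2 worms and 24.1 in the triple mutant, and its locus overlaps another gene's. Among replicative and linker histones 6 of 23 compared were lower (26.09%) and 3 higher (13.04%), beside 10.9% and 14.5% of all compared genes. With equal summed FPKM 4 were lower and 3 higher. Of the 75 listed, 52 were not compared. The linker histone gene hil-1 had 2.11 FPKM in WT, 1.97 in the double mutant, 115 in daf-2 worms and 93.7 in the triple mutant. Replicative histone genes have near-identical copies and their values are uncertain.

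The other mutants, apart from nuo-6 without the his alleles, were set against the same WT pool, so the comparisons are not independent. Called genes were not counted for nuo-6 without the his alleles. By the same rule 1725 of 11405 genes were higher in daf-2 (15.1%) and 1506 lower (13.2%). In the double mutant 125 of 10972 were higher (1.14%) and 99 lower (0.902%). For nuo-6 with the his alleles 812 of 11158 were higher (7.28%) and 532 lower (4.77%). Genes called higher in the triple mutant had a median of 4.48 FPKM in WT, 5.02 in the double mutant, 7.30 in daf-2 worms and 23.3 in the triple mutant. Genes called lower had medians of 45.7, 42.9, 26.2 and 16.44 FPKM. Both sets were chosen by their WT and triple mutant values, so the gap between those pools follows from the choice. The medians of the other pools may also be shaped by it, which was not tested.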

How the data were processed

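RNA of whole worms was sequenced as mRNA libraries, per the labels' protocols. The authors deposited FPKM (fragments per kilobase and per 1e6 mapped fragments), with 1 value per gene and genotype. All 5 replicates of a genotype point to that value, and how they were combined is not stated. Tools named without versions in the submitters' processing notes are FastQC, STAR, Cufflinks and Cuffdiff. Neither counts nor replicate values were analysed here. Ratios, medians and counts were computed in Python 3.11.15 with pandas 2.3.3 and numpy 2.4.6, drawn with matplotlib 3.10.9 and checked on simulated data. No pseudocount or rescaling was applied. Tables were joined by gene ID, and 1 row naming no gene was left out. A ratio of 2, with a minimum of 5 FPKM in the higher pool, replaced a test. List medians are less the median of all compared genes.

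Members and lists were chosen with earlier results of these data known. Of 59 lists, 2811 distinct members were matched, 135 of the entries through a current symbol, and 7 names were not found. The lists of early embryonic, uterine and dauer genes were added after values had been seen. Named were his-71, his-72 and daf-2, genes from the 10 with the largest ratio each way, and up to 4 called members per list in its commoner direction; some were left out for length, and 2 are not reported here. Outside that rule, and chosen after their values were seen, are rpl-32, hil-1, his-70, col-19, col-7, col-62, dpy-14, dpy-17, lin-29, lin-42, rme-2, R151.2, Y75B8A.33, the neighbouring runs and the members of the 3 added lists. The listed locus of 2755 compared genes overlaps that of another, which makes those values uncertain. The alternatives were other ratios, minimums and scalings, a pseudocount and the removal of shared loci.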

Additional observations from a re-analysis of the deposited data

How the results depend on the processing

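With a ratio of 1.5 there were 2840 genes higher and 2714 lower, and with a ratio of 3 there were 1064 and 396. A minimum of 1 FPKM gave 2536 and 2053, and one of 20 FPKM gave 933 and 843. Equal summed FPKM gave 3094 and 482. Counts stayed within 1.5 times the reported ones when the median ratio was set to 1 (1655 and 1294), with a pseudocount of 1 FPKM (1533 and 1138), without genes of shared loci (1364 and 997), and without genes under 0.1 FPKM in either pool (1532 and 1264), the last chosen after seeing the data. Of 205 named and called genes, 205 stayed past a ratio of 2 with the median scaled, 167 with equal sums and 201 with the pseudocount. A few list medians changed sign: small heat shock genes outside the hsp-16 family at a minimum of 20 FPKM (-0.0444), cuticle collagens at 1 FPKM (0.13), adult cuticle markers without shared loci (0.70), C-type lectins at 1 FPKM (-0.30) and nuclear hormone receptors at 1 FPKM (0.0013) and 20 FPKM (0.0394). The cause was not tested. No paired analysis was possible because the tables hold 1 value per genotype, and for the same reason no replicate could be left out. The unknown depth leaves the precision of ratios to very low values unknown.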

Other observations

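By annotation terms carried in the authors' tables, genes annotated to the AB blastomere, a founder cell of the embryo, were higher for 46.5% of 43 compared, with 0 lower. Genes annotated to the germ line were higher for 26.1% of 322 and those of the oocyte for 25.4% of 114, beside 14.5% of all compared genes. Such shares were not limited to germ line and embryo. Sensory neuron genes were higher for 27.1% of 48 and nerve ring neuron genes for 26.8% of 41, whereas the broader term neuron had 6.41% of 593. Genes annotated to sperm were lower for 24.5% of 53 and those of the hyp7 syncytium, the main body hypodermis, for 23.6% of 106, beside 10.9% of all. Structural constituents of cuticle went both ways, with 37.8% higher and 41.2% lower of 148. Terms were counted where at least 40 compared genes carried them, and genes carry many terms at once.

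Runs of at least 5 neighbouring compared genes that were all called in 1 direction numbered 14 higher and 3 lower. The longest held 8 genes from F14D7.7 to F47B8.18 on chromosome V (14306504 to 14325539), all higher. Another run on V, ZK285.2 with F14H3.3 to F14H3.6, had ratios between 223 and 1760.

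Y75B8A.33 is listed at III:12361859-12367373, next to his-72, and had 0.498 FPKM in WT, 193 in the double mutant, 0.592 in daf-2, 205 in the triple mutant, 1.99 in nuo-6 and 271 in nuo-6 with the his alleles. In WT R151.2 was at 197 FPKM, with 366 in the daf-2 pool and 109.8 in the nuo-6 pool, and it was listed at 0 in the 3 pools with the his alleles. It was the only gene at or above 5 FPKM in WT that was listed at 0 in the triple mutant, while 24 genes were listed at 0 in WT with at least 5 FPKM in the triple mutant, nlp-39 with 45.5 FPKM among them. A value of 0 can also be a failed estimate.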
